A study of Mus musculus with 384 samples.

Results

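The cells described here are 71 single mouse mammary cells that were sorted as basal cells 1 week after the luminal layer of the gland had been ablated. The members are the wells labelled as basal cells of the doxycycline-treated condition. A well was kept if its gene reads reached 100000, its genes numbered 1000 or more and its mitochondrial share was not above 20%. Of 91 such wells 71 were kept, out of 319 kept single cells in the series. All 20 wells left out had too few reads, between 2588 and 38963. By plate line, which is the letter of the well, 9 of 10 wells were kept in line E, 23 of 24 in F, 19 of 24 in G, 16 of 24 in H and 4 of 9 in I.

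The study sequenced full-length cDNA of sorted mammary epithelial cells by Smart-seq2 on 1 plate, before and after luminal ablation, to characterise the cells that appear between the basal and luminal states. The ablated group came from K8rtta/TetO-DTA/K5CreER/Rosa-Tomato mice of mixed background that received 0.2 mg doxycycline by intraductal injection. The WT basal cells set beside them (44 kept of 50 wells) came from mice of the same strain, and the labels record no doxycycline for them. In this strain the Krt8 promoter drives the doxycycline-dependent activator, so that diphtheria toxin is made in luminal cells, while the Krt5 promoter drives the inducible Cre that marks basal cells with Tomato. Cells were sorted as Tomato-positive, negative for CD45, CD31 and CD140a, and by CD29 and EpCAM. The labels do not tie cells to animals, so each group counts as 1 sample. No test was therefore run, and no difference between the groups is set against a spread between animals.

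Basal cells of the mammary gland lie on the basement membrane around the luminal layer. They are contractile myoepithelial cells, which squeeze milk out under oxytocin through a smooth muscle type of actin and myosin, and they carry the stratified-epithelium keratins Krt5 and Krt14. The basal layer also holds cells that can give rise to luminal cells when the gland is transplanted or injured.

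The kept cells had 153340 to 2143906 reads in genes (median 677373) and 2778 to 6959 genes (median 4503), against a median of 978494 reads and 4621.5 genes in WT basal cells. Levels are reads summed over the cells as counts-per-million of gene reads (CPM), or CPM in 1 cell where a cell is named. Every cell was thinned at random to 100000 reads, and a gene with 5 of these reads, or 50 CPM, counted as detected. Levels carry exact 95% Poisson intervals and shares 95% Clopper-Pearson intervals, which cover counting error only. Without molecular identifiers, reads are not counts of separate molecules. The 5 negative control wells held 7930 to 13572 reads, among them a mean of 27.2 reads of Acta2, 18.8 of Krt14 and 0.6 of Fmod per well.

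Of the 5 markers named with this group, Acta2, Krt14, Sparc and Cnn1 were carried by most cells and Fmod by 40.8% of them. Acta2, the smooth muscle actin, was detected in 70 of 71 cells, Krt14 in 70 and Sparc, a secreted collagen-binding glycoprotein, in 71. Cnn1, the actin-binding calponin of smooth muscle, was detected in 61 cells, and Fmod, the collagen-binding proteoglycan fibromodulin, in 29. All 5 markers were detected together in 28 cells, 4 of them in 34, 3 in 7 and 2 in 2. Among WT basal cells, 0 of 44 detected all 5, 18 detected 4 and 20 detected 3, and this difference contains Fmod, which no WT cell detected.

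**Figure D1:**
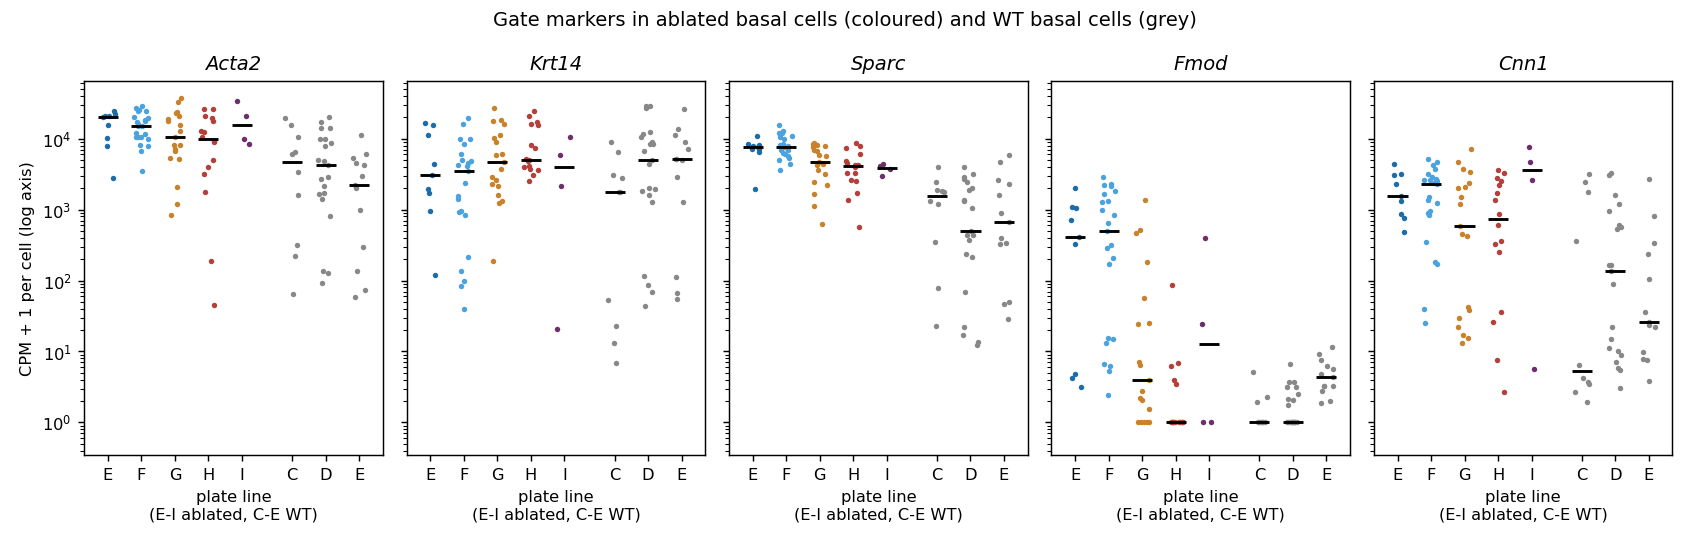
Level of each marker per cell as CPM plus 1 on a log axis, by plate line, with ablated basal cells in colour at the left and WT basal cells in grey at the right of each panel; 1 point is 1 cell and bars are medians. Acta2 and Sparc are high in nearly every ablated basal cell, and Krt14 is high in most but runs from 19.8 to 27026 CPM. Fmod has medians of 414 and 503 CPM in lines E and F and of 2.96 and 0 CPM in lines G and H.

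Acta2 (ENSMUSG00000035783.8, GRCm38 chromosome 19, 34241090 to 34255590, minus strand) stood at 16591 CPM over the ablated basal cells (95% interval 16559 to 16624) and at 5422 CPM over WT basal cells. In single ablated cells it ran from 43.9 to 37363 CPM with a median of 12725, and in WT cells from 57.6 to 19897 CPM with a median of 3150. The ranges overlapped, and reads of Acta2 may be shared with the near-identical actin Actg2. Sparc (GRCm38 chromosome 11, 55394500 to 55423183, minus strand) was the marker that varied least, with 574 to 15346 CPM and a median of 6017 in ablated basal cells, against 11.3 to 5840 CPM and a median of 979 in WT cells. Krt14 (chromosome 11, 100203162 to 100207548, minus strand) had nearly the same level in both groups, at 7189 CPM in ablated and 7154 CPM in WT cells, a log2 ratio of 0.01 that was −0.13 under TMM scaling and −0.53 in the libraries of many cells. It ran from 19.8 to 27026 CPM with a median of 4220 among ablated basal cells.

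Cnn1 (chromosome 9, 22099216 to 22109630, plus strand) stood at 2218 CPM in ablated and 524 CPM in WT basal cells, with 1.69 to 7524 CPM and a median of 1362 in the single ablated cells. Its detection was 85.9% of ablated cells and 47.7% of WT cells. Fmod (chromosome 1, 134037254 to 134048277, plus strand) stood at 440 CPM in ablated cells (95% interval 435 to 445) and at 1.84 CPM in WT cells. Its median was 6.09 CPM and its highest cell 2871 CPM after ablation, so that the level came from a minority of cells. It was detected in 40.8% of ablated cells (95% interval 29.3% to 53.2%) and in 0 of 44 WT cells, whose exact upper limit is 8.04%. Of 4539 genes at 20 CPM and detection in 10% of ablated cells, 20.2% were 2-fold or more higher there than in WT basal cells. A further 8.2% were 2-fold or more lower. WT cells set no such filter, so genes low after ablation were left out and the 2 shares cannot be weighed against each other. Of the 5 markers, 4 were among the higher genes, Krt14 being the exception. In the libraries of many cells Cnn1 had a log2 ratio of 0.85, short of 2-fold. The same ratio was 1.53 for Acta2, 2.77 for Sparc and 3.57 for Fmod. Per kilobase of exon, Acta2 led the markers at 7555 CPM, ahead of Krt14 at 4089, Sparc at 1744, Cnn1 at 811 and Fmod at 133.

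Because WT and ablated basal cells sit mostly on different plate lines, group and plate line cannot be told apart for most cells. Line E alone held both, with 9 ablated and 13 WT basal cells. Its WT wells took columns 1 to 14 and its ablated wells columns 15 to 24, so group and plate column cannot be told apart there. On this line Acta2 had a median of 20475 CPM (2773 to 24302) in ablated cells and 2235 CPM (57.6 to 11369) in WT cells. Sparc had a median of 7698 CPM in ablated and 665 CPM in WT cells, and Cnn1 1562 and 25.05 CPM. Krt14 had a lower median in the ablated cells of this line, 3076 against 5150 CPM in WT cells, and Slpi 9.67 against 2028 CPM, with overlapping ranges for both. Fmod was detected in 6 of 9 ablated cells and 0 of 13 WT cells of that line. The insulin-like growth factor binding protein Igfbp5 had a median of 4419 CPM in the ablated cells of line E (418 to 7238). In the WT cells of this line it was 21.2 CPM (8.16 to 248), and the 2 ranges did not overlap. The share of all genes with such ranges on line E was not computed. Over all lines the ablated cells ran from 4.43 to 17077 CPM of Igfbp5, which overlaps these WT cells.

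Cell-to-cell spread was measured as the standard deviation (SD) of log2(CPM + 10) over cells, minus the median SD of the genes nearest to it in mean level, here called the excess. Of 4539 genes measured in ablated basal cells, 28 (0.617%) had an excess of 0.5 or more, against 39 of 3666 (1.06%) in WT basal cells. Over all measured genes, 49% had an excess above 0. Of the 28, 26 were also measured in WT basal cells and 12 passed the same excess there.

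**Figure D2:**
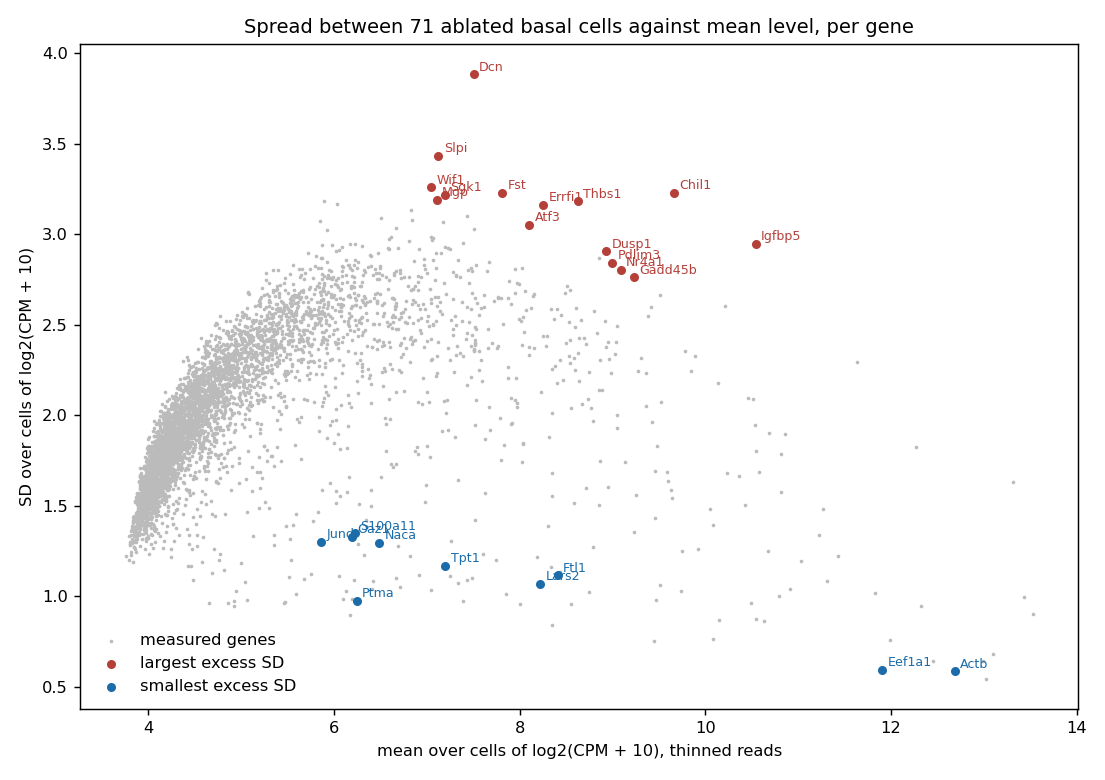
SD over the 71 ablated basal cells of log2(CPM + 10) from thinned reads, against its mean, with 1 point per gene; named in red are the 15 genes of largest and in blue the 10 of smallest excess SD under the naming rule. Dcn stands highest, with an excess of 1.44, and Actb and Eef1a1 have the smallest SD among the named genes at a high level.

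Dcn, the collagen-binding proteoglycan decorin, varied most, with an excess of 1.44. It was detected in 37 of 71 ablated cells, ran from 0 to 13337 CPM and had a median of 81.6 CPM. Slpi, a secreted inhibitor of leukocyte proteases, had an excess of 0.92, detection in 34 cells and a range from 1.61 to 14816 CPM. Dcn was thus below detection in 34 cells and Slpi in 37, about as many as detected them. Chil1, a chitinase-like secreted protein, had an excess of 1.14 and ran from 6.37 to 42521 CPM. Its median was 1456 CPM in ablated and 4402 CPM in WT basal cells. Thbs1, the matrix glycoprotein thrombospondin 1, had an excess of 1.00 with a median of 764 CPM, against 2270 CPM in WT cells.

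Igfbp5, with an excess of 0.85, ran from 4.43 to 17077 CPM around a median of 3522 CPM after ablation, against a median of 19.4 CPM in WT cells. A pair of extracellular signalling inhibitors were also uneven. Fst, the activin antagonist follistatin, had an excess of 0.85 and was detected in 47 cells, and Wif1, which binds Wnt ligands, had 0.74 and 37 cells. Mgp, an inhibitor of calcification found in matrix, had an excess of 0.68 and was detected in 41 cells, against 4 of 44 WT cells. Pdlim3, a PDZ and LIM domain protein of the actin cytoskeleton, had an excess of 0.75 and a median of 1053 CPM in ablated cells, against 28.04 CPM in WT cells.

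Of the remaining leading genes, Dusp1, a phosphatase of MAP kinases, had an excess of 0.81, Errfi1, an inhibitor of the EGF receptor, 0.81, and the nuclear receptor Nr4a1 0.71. The kinase Sgk1 had an excess of 0.71, the transcription factor Atf3 0.68 and the stress gene Gadd45b 0.67. The immediate early genes differed among themselves. Among the 17 measured members of the immediate early list, 3 (Dusp1, Nr4a1 and Atf3) had an excess of 0.5 or more, against 0.617% of all measured genes, and 9 lay above 0, against 49%, with a median of 0.01. Egr1 was detected in all 71 cells with an excess of −0.61, and Fos and Junb were also detected in 71, with excesses of −0.27 and −0.85.

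At the other end, Ptma had an excess of −1.58, Actb, the cytoplasmic actin, −1.51 and the elongation factor Eef1a1 −1.50. Actb ran from 1601 to 15644 CPM over the 71 cells and Eef1a1 from 1119 to 8631 CPM. The reference SD of Actb, 2.09, was also that of Acta2 and B2m, whose levels differ, so its excess was not closely matched to level. Of the basal keratins and regulators, 10 of 12 were measured and 2 were variable, against 0.617% of all measured genes. These were Krt15 with an excess of 0.60 and Krt17 with 0.51. Krt5 had 0.35 with detection in 52 cells, and Trp63, the transcription factor of the basal lineage, 0.28 with detection in 30. Krt15 was detected in 25 of 71 ablated cells and 3 of 44 WT cells, with a range of 0 to 4066 CPM after ablation.

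The largest axis of variation, the first principal component of 1000 genes, held 4.78% of their variance. At its one end lay matrix and secreted genes, led by Dcn, Fmod, Htra1, Mgp, Moxd1, Col4a2, Mfge8 and Reln, with Ntrk3 and Cnn1. At the other end lay Slpi, C4b, Fxyd6, Lgr5, Slc6a6, Dst, Map1b, Bhlhe40, Tanc2 and Sltm. Htra1 is a secreted serine protease, Col4a2 a chain of basement membrane collagen, C4b a complement component and Lgr5 a receptor for R-spondin. Of the variance of this axis 55.2% lay between plate lines, with median scores of 6.43 in line E, 5.49 in F, −5.40 in G, −4.49 in H and −6.35 in I. The score also moved with the number of genes per cell (r = 0.71 on log2 genes) and less with reads (r = 0.38), over 71 cells that share a plate. Median genes per cell were 4928, 4638, 4230, 3973.5 and 5023.5 in lines E to I, and median reads 1216631, 571098, 675393, 618294 and 878114.5. What plate line stands for was not tested.

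**Figure D3:**
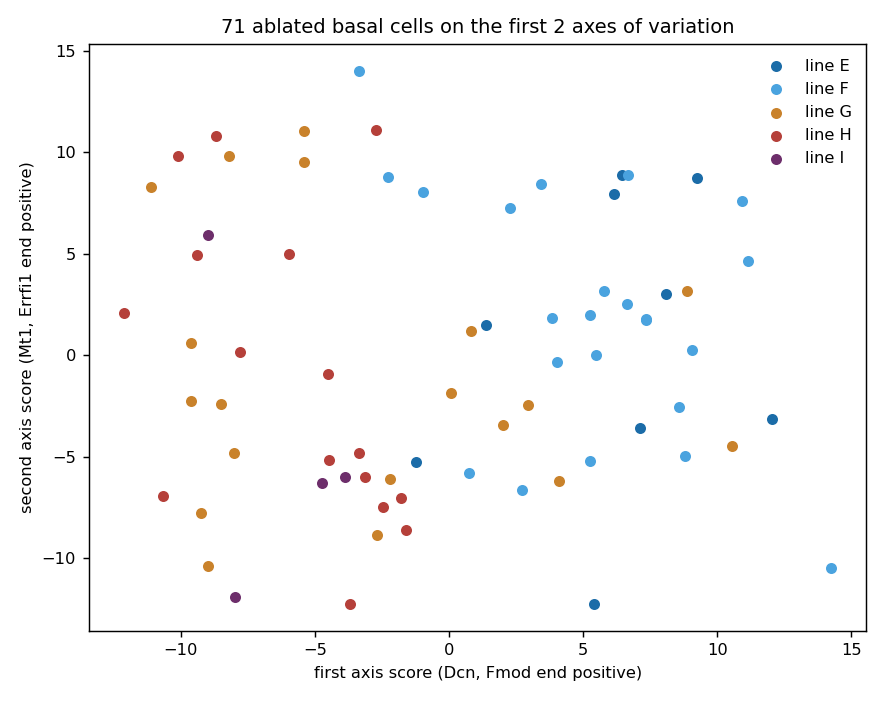
Scores of the 71 ablated basal cells on the first and second axis of variation, with 1 point per cell coloured by plate line. Cells of lines E and F lie mostly to the right, with median first-axis scores of 6.43 and 5.49, and those of G, H and I to the left, with −5.40, −4.49 and −6.35.

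Dcn showed the division most sharply, with 67.2% of its variance between lines. It was detected in 8 of 9 cells of line E, 22 of 23 of F, 6 of 19 of G, 1 of 16 of H and 0 of 4 of I, and its medians were 2109, 3866, 6.32, 2.36 and 0 CPM. Fmod was detected in 6, 16, 4, 1 and 2 cells of these lines and Mgp in 7, 20, 7, 6 and 1. Slpi ran the other way, with detection in 2, 6, 10, 12 and 4 cells and medians of 9.67, 11.5, 62.2, 671 and 2838 CPM. C4b was detected in 1, 4, 11, 13 and 4 cells, and Lgr5 in 3, 3, 11, 9 and 2. Line G was mixed, with 6 cells that detected Dcn and 10 that detected Slpi.

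**Figure D4:**
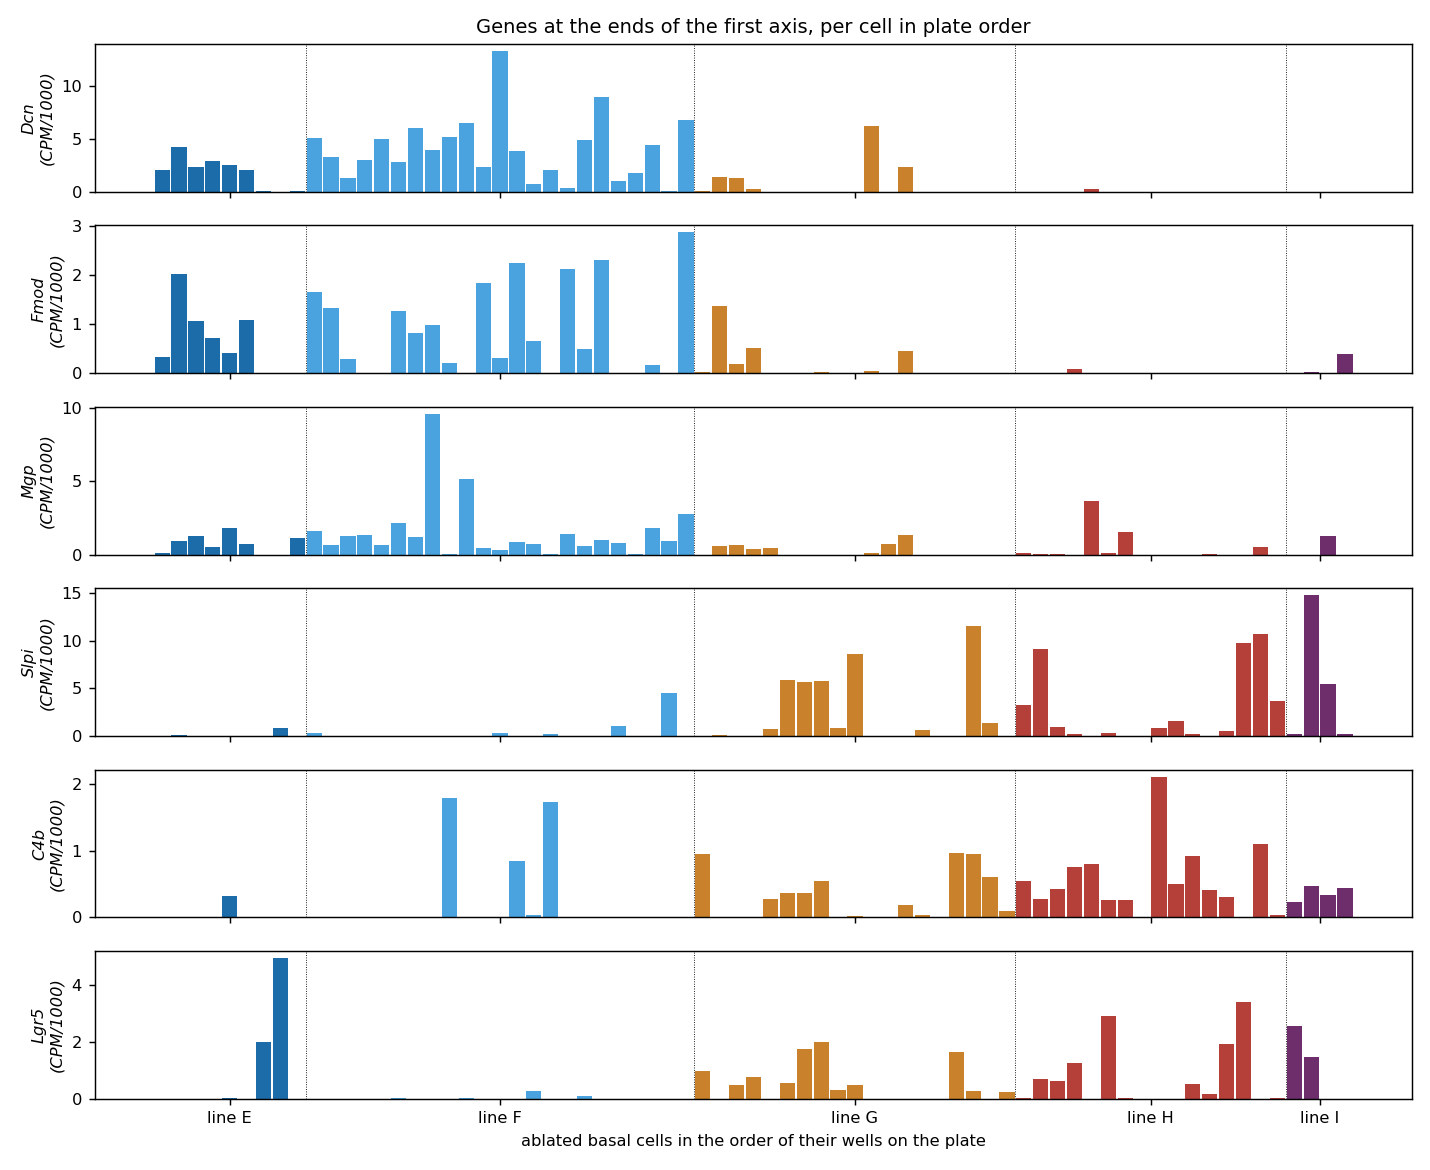
CPM divided by 1000 of 6 genes in each ablated basal cell, in the order of the wells, with dotted lines between plate lines. Dcn and Fmod are high mainly in lines E and F and in a few cells of G, Mgp in lines E and F and in some cells of G, H and I, and Slpi and C4b mainly in G, H and I.

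Across all genes, 51 of 4539 (1.12%) had 25% or more of their variance between lines. Of these 51, 43 were higher on average in lines E and F together. The share of all measured genes that were higher there was not computed, so the 43 cannot be weighed against it. In WT basal cells, on lines C, D and E, 22 of 3666 genes (0.6%) had 25% or more between lines. Only 1 gene, Dcn, had this in both groups, with 67.2% in ablated and 26.5% in WT cells. The median gene had 5.55% of its variance between lines in ablated and 3.77% in WT basal cells. This share can rise with more lines or fewer cells without any effect of line, and no such baseline was computed. The groups differ in both, so their medians and counts are not directly comparable. Of the matrix protein list, 15 of 20 genes were measured, with a median of 26.4% between lines. Of these, 4 were variable (Dcn, Thbs1, Igfbp5 and Mgp), against 0.617% of all measured genes. The summed level of the list had medians of 23168, 26864, 13926, 12360 and 9657 CPM in lines E to I. Col4a1 had 31.8%, Vcan 31.8% and Igfbp5 31.3% between lines, while Postn, a matricellular protein, had 2.67% and was detected in 57 cells. The contractile list had a median of 6.92%. In WT basal cells Dcn had medians of 11.4, 9.50 and 1241 CPM in lines C, D and E, but Mgp had medians of 1.15, 2.33 and 3.42 CPM there.

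Dcn and Fmod were found together. Of the 29 cells with Fmod, 26 also detected Dcn, 11 detected Dcn alone and 31 neither. Their levels correlated over the 71 cells (r = 0.75), and less after each gene was centred on its plate line (r = 0.58). Within lines, r was 0.97 over the 9 cells of E, 0.25 over the 23 of F and 0.84 over the 19 of G. Dcn and Slpi were mostly in different cells, with 30 cells detecting Dcn alone, 27 Slpi alone, 7 both and 7 neither. Their r was −0.68 over all cells, −0.48 after centring, and −0.52, −0.48 and −0.59 in lines E, F and G. In lines E and F, Dcn was detected in 8 of 9 and 22 of 23 cells and Slpi in 2 and 6. The r of Dcn with Slpi in these 2 lines thus rests on few cells. Line H, where 1 cell detected Dcn and 1 detected Fmod, cannot show either relation. Both pairs were picked from the ends of the first axis in these same cells.

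Dcn is also known as a gene of fibroblasts, so other fibroblast genes were read in the same cells. Of the 10 genes of the fibroblast list, Dpt, Lum and Fap had no read, Col3a1 was detected in 1 cell and Col1a2 in 10 cells, and 0 cells detected 3 or more. The summed level of the list ran from 0 to 13337 CPM over ablated cells and from 1.35 to 6818 CPM over WT cells, and the upper ends are the levels of Dcn itself. The immune and endothelial lists had medians of 0 CPM, with maxima of 827 and 606 CPM against 5.01 and 5.01 CPM in WT cells. In 1 ablated and 0 WT cells 3 or more of the 10 immune genes were detected, and 5 of the 10 were detected in some ablated cell, while Ptprc, Cd3e and Cdh5 had no read. The pericyte list reached 1488 CPM with a median of 1.07 CPM, and Kcnj8 and Abcc9 had no read. Adipocyte, erythroid and skin keratinocyte lists had no measured member, with summed maxima of 354, 0 and 679 CPM.

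The second axis held 4.53% of the variance, and 6.38% of its own variance lay between lines. Median scores were 1.47, 1.85, −2.39, −2.86 and −6.14 in lines E to I. The score had an r of −0.36 with log2 genes per cell, −0.32 with log2 reads and 0.36 with mitochondrial share. Its one end was led by Mt1, a metallothionein, Errfi1, Ifrd1, Ddx3x and Ccnl1. The other end was led by Lgals1, a galectin, the mitochondrial carrier Ucp2, the tetraspanin Cd151, Crip2 and Gfra2, a receptor of the GDNF family. Mt1 was detected in 60 cells with 9.02 to 13535 CPM, and Errfi1 in 49. They correlated at r = 0.67 over 71 cells, and at 0.82, 0.59, 0.70 and 0.70 within lines E, F, G and H. When every gene was centred on its line, the axis that then held most variance (4.84%) followed this second axis (r = 0.93), with Mt1 and Errfi1 at one end and Lgals1 and Ucp2 at the other. Myl9 and Cnn2, an actin-binding calponin, also lay at the Lgals1 end of it. This centred axis had an r of −0.55 with log2 genes per cell and −0.42 with log2 reads, so the Lgals1 end goes with more genes per cell. The part of depth in this axis was not tested.

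The contractile genes showed a graded coexpression led by few members. Of the 20 listed genes, 18 were measured and 2 of them were variable (Cnn1 and Pdlim3), against 0.617% of all measured genes. An excess above 0 was found in 8, where 49% of all measured genes lay above 0. For 16 members detected in at least 30% of cells the median r over 120 pairs was 0.17, from −0.16 to 0.66, against 0.03 over all pairs of 1409 genes. After line centring it was 0.16, and with the fit on genes per cell removed or without the filter on low genes it was 0.10. The median over all pairs was not computed under these changes, nor for genes matched to the list in level. At an r of 0.5 or more stood 9 of the 120 pairs, against 0.0204% of all pairs, and 8 of the 9 hold Acta2 or Cnn1. Cnn1 with Myl9 had 0.66, Acta2 with Tpm2 0.66, Acta2 with Myl9 0.65 and Acta2 with Csrp1 0.65. Myl9 is the regulatory light chain of smooth muscle myosin, Tpm2 a tropomyosin and Csrp1 a LIM protein of smooth muscle.

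**Figure D5:**
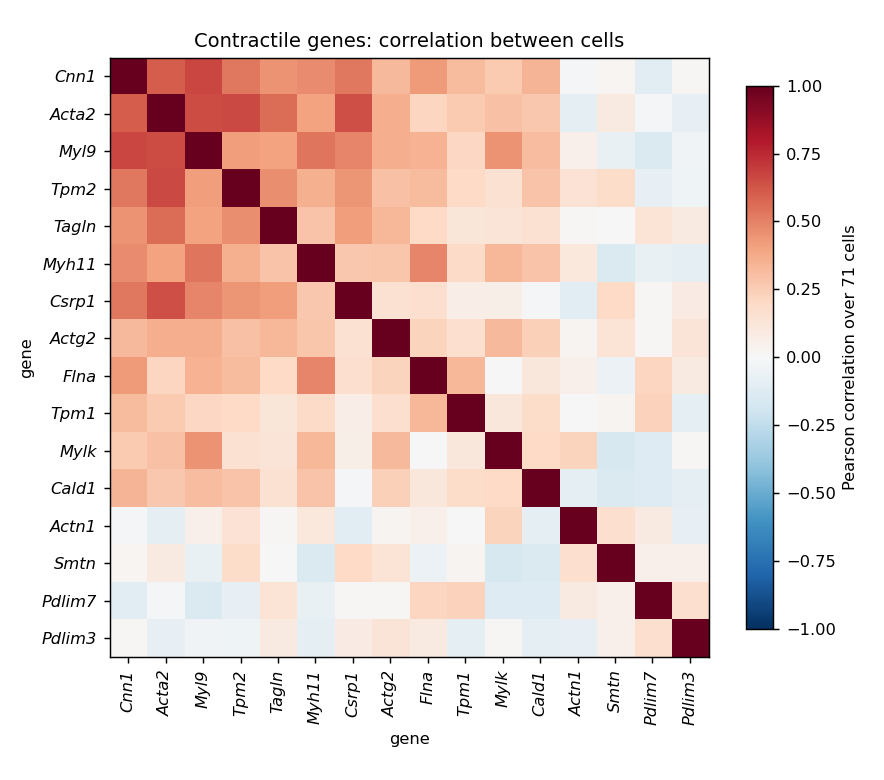
Pearson correlation over the 71 ablated basal cells of log2(CPM + 10) between 16 contractile genes, in falling order of their correlation with the rest of the list. A block from Cnn1 to Csrp1 is red, with r of up to 0.66, and the rows of Actn1, Smtn, Pdlim7 and Pdlim3 are near 0.

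Against the mean of the other members, Cnn1 had an r of 0.69, Acta2 0.69, Myl9 0.66, Tpm2 0.61, Tagln 0.52 and Myh11, the smooth muscle myosin heavy chain, 0.51. The same figure was 0.07 for Actn1, 0.05 for Smtn, 0.03 for Pdlim7 and 0.01 for Pdlim3. Of the 1409 genes, 10 (0.71%) had an r of 0.5 or more with the list and 0 had −0.5 or less. Beyond the list members these were Tgfb1i1, a focal adhesion protein, Myl6, a myosin light chain, Actn4, an actinin, and Sh3bgrl, at 0.54, 0.54, 0.54 and 0.52. Egr1 (−0.39), Chil1 (−0.35), Vdr (−0.34), Ppp3ca (−0.31) and Atf4 (−0.31) stood lowest. The contractile level also moved with genes per cell, with an r of 0.49 for Acta2 and 0.52 for Cnn1, and with the fit on genes per cell removed 5 genes reached 0.5.

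Krt14 stood outside this block. Its r with Acta2 was 0.04 over all cells and 0.17 after centring, and 69 of 71 cells detected both. The genes closest to Krt14 were Sdc4, a syndecan (r = 0.46), and Krt17 (r = 0.44), and the most opposed was Smarca2, a chromatin remodeller (r = −0.50). Over all 71 cells the level of Krt14 thus carried little of the order of Acta2. Within lines the r of Acta2 with Krt14 was 0.65 over the 9 cells of E, 0.15 in F, 0.36 in G and −0.08 in H. The r of Acta2 with Myl9 was 0.64, 0.59, 0.77 and 0.66 in the same lines.

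The promoters of 4 genes are shown because the contractile block is known as a target of serum response factor, which binds the CArG box, and Dusp1, among the most uneven genes, belongs to a group known for the cAMP response element TGACGTCA. Sequences are from RefSeq on GRCm38.p6, from 250 bases before to 50 after the start, with any match in capitals and both strands searched. Matches are exact ones to the consensus, and elements that depart from it by a base were not searched. Acta2 (chr19:34255324-34255623, minus strand) and Cnn1 (chr9:22099003-22099302, plus strand) had no exact match to the CArG box consensus in this window, Myl9 (chr2:156775214-156775513, plus strand) had 1 that began 161 bases before the start, and Dusp1 (chr17:26508423-26508722, minus strand) had TGACGTCA 143 bases before its start.
Acta2: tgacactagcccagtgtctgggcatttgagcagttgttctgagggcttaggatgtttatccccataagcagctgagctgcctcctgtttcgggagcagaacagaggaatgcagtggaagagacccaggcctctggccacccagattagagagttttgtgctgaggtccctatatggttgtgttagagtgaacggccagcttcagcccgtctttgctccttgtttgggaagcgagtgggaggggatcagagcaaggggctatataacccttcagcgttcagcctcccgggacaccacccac
Cnn1: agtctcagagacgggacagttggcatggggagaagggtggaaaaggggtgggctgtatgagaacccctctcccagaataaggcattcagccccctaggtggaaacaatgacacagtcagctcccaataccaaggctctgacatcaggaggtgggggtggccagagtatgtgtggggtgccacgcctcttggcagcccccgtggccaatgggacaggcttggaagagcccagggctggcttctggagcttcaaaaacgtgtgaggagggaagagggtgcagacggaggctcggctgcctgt
Myl9: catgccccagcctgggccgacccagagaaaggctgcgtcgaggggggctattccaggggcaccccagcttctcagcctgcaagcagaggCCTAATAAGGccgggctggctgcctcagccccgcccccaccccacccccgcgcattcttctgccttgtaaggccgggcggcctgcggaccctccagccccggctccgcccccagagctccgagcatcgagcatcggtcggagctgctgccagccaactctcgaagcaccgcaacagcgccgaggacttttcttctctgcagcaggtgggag
Dusp1: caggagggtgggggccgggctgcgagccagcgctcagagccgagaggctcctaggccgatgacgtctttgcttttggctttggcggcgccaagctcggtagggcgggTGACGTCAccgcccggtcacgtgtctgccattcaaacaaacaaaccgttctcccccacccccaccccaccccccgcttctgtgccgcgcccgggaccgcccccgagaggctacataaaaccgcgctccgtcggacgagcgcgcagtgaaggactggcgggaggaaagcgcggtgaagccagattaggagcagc

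Of the 20 contractile genes 17 were matched in the promoter table, and 1 of them, Myl9, held an exact CArG box match, against 1.81% of 27025 genes. Of the 18 immediate early genes 14 were matched, and 2, Btg2 and Dusp1, held TGACGTCA, against 2.03%. The CArG box match was also in 1 of the 14 immediate early genes, Zfp36, and TGACGTCA in 1 of the 17 contractile genes, Pdlim3, so neither motif was particular to its list. These matches describe the letters in the window and carry no value from the cells.

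Simple-epithelium keratins were low in these cells. Krt8, Krt18 and Krt19 had medians of 125, 35.4 and 7.03 CPM in ablated basal cells and 164, 39.4 and 6.65 CPM in WT basal cells. The same genes had medians of 3502, 5567 and 3756 CPM in the luminal-gated cells after ablation. Detection of at least 2 of the 3 was found in 24 of 71 ablated cells, or 33.8% (95% interval 23.00% to 46.01%), and in 16 of 44 WT cells, or 36.4% (22.4% to 52.2%). Negative wells held reads of these genes, and the share among ablated cells was 18.3% after the mean reads of a negative well had been subtracted. The 24 cells had a median of 4846 genes and the other 47 a median of 4248 genes, and whether any held 2 cells was not tested. One cell of line H had 43.9 CPM of Acta2 and 1.69 CPM of Cnn1 but 4056 CPM of Krt14. Its simple-epithelium keratins were uneven, with 2113 CPM of Krt18, 392 CPM of Krt8 and 1.69 CPM of Krt19. A cell of line I had 19.8 CPM of Krt14 with 8360 CPM of Acta2. Both were picked because they are the lowest cells for Acta2 and Krt14.

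Cell cycle transcripts were detected in few cells. Of 18 cell cycle genes 2 were measured, and 3 or more were detected in 1 of 71 ablated cells (1.41%, 95% interval 0.0357% to 7.60%) and 1 of 44 WT cells (2.27%). Mki67 was detected in 2 ablated cells, and Top2a had no read. Lgr5 was detected in 28 and Lgr6, a related receptor, in 27 of the 71 ablated cells, against 15 and 3 of 44 WT cells. Procr, a receptor named for multipotent basal cells, was detected in 1 ablated and 1 WT cell. Among other lists no member of the Notch, basement membrane and adhesion, contractile regulator, heat shock, hypoxia and glycolysis, interferon, p53 or oxidative phosphorylation lists was variable, which is near the 0.617% over all genes. Of the Notch list 6 of 16 genes were measured, with a median excess of −0.14, and Jag1, a ligand, was detected in 34 ablated cells. Of 15 oxidative phosphorylation genes all were measured, with a median excess of −0.07. Errfi1 was the variable gene of 4 measured in the EGFR family list, Fst of 8 among BMP and activin genes, and Lgr5 of 6 among progenitor-associated genes. In the Wnt list 11 of 20 were measured and Lgr5 alone was variable, and Ccn1, a matricellular target of YAP, was the variable gene of 10 measured in the YAP and TAZ list. The chemokine Cxcl1 was variable in the TNF and NF-kB list, with an excess of 0.63, detection in 26 cells and 18468 CPM in its highest cell.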

How the data were processed

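Full-length Smart-seq2 libraries of single cells on 1 plate were analysed. The deposited values are raw read counts per gene and well, not normalized by the authors. Per the submitters' processing notes, STAR 2.5.2b, cutadapt 1.13, Seurat, HTSeq 0.6.0 and the GRCm38 build were used, and their roles, annotation and strand setting are not given in the sources used here, so antisense and overlapping genes are uncertain. Spike-in rows were left out. Of 49585 gene identifiers 49326 were matched to GENCODE M21. Groups follow the labels, and no 2 wells held identical counts. Doublets were not called.

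The spread, correlation and axis measures were computed in Python 3.11.15 with numpy 2.4.6 and tested on simulated data, with scran 1.30.0, edgeR 4.0.16 and DESeq2 1.42.0 used only for alternative scaling factors. Genes were measured for spread at 20 CPM and detection in 10% of cells, and correlated on log2(CPM + 10) at detection in 30%. Named genes are the markers, the 15 largest and 10 smallest excesses among genes at 50 CPM and 20% detection with no cell holding over 25% of reads, the ends of the axes (10 and 5 genes each), the closest and most opposed genes of each marker, up to 4 genes of each list and set lineage genes. Genes of the between-line and covariation lists outside this rule (Vcan, Tgfb1i1, Actn4, Sh3bgrl, Cnn2, Tpm1 and other list members) were chosen after their values were seen. Members and lists were chosen with earlier results of these data known. Alternatives changed filters, thinning, scaling, the added CPM, plate line and correlation measure.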

Additional observations from a re-analysis of the deposited data

How the results depend on the processing

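Of 246 values recomputed under alternatives, 216 stayed within the spread or within 1.5 times the count, 30 moved and 0 called values changed sign. The 216 include all values under the other mitochondrial limits and the higher gene minimum. Those settings kept the same 71 cells and returned every value unchanged, so they could not show whether a result depends on these filters. The Krt14 ratio, which was not called at 0.01, was −0.13 with TMM, −0.13 with median-of-ratios and −0.53 in the libraries of many cells. Cells with 2 luminal keratins were 80.3% at 1 read, 16.9% at 20 reads, 83.1% without thinning, 19.7% at a read minimum of 50000 with thinning to that depth and, chosen after seeing the data, 18.3% with negative-well reads subtracted. Acta2 was detected in 100% of cells at 1 read, without thinning, under another thinning seed, at a minimum of 200000 reads, without the luminal keratin cells and without line H. Krt14 detection was 90.1% at 20 reads and 100% without thinning or without line I, and Cnn1 detection 94.4% at 1 read and 97.2% without thinning. Fmod detection was 27.1% without line F. Cycling cells were 0% at 20 reads, without the luminal keratin cells and without line G. Variable genes numbered 60 with 1 CPM added and 75 by the squared coefficient of variation, and 20 after line centring, of which 18 were among the 28. Genes covarying with the contractile list numbered 5 with scran factors, by Spearman correlation or with genes per cell removed, 25 in lines E and F alone and 19 in G, H and I alone, both chosen after seeing the data. The log2 ratio of ablated to WT was 5.25 for Fmod, 7.28 with 1 CPM added and 3.57 in the libraries of many cells, and 2.06 for Cnn1 and 0.85 in those libraries. The cause of these moves was not tested. The median r within the contractile list ranged from 0.10 to 0.20 and the share of the first axis from 3.80% to 5.64%. No paired analysis was possible because each group is 1 sample whose cells carry no shared replicate numbers. A share or correlation at these depths cannot show the absence of a transcript below 50 CPM in a cell, and with 4 kept cells line I gives little precision.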
